A study of Mus musculus with 9 samples.

Results

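The imprinted fetal growth genes H19, Igf2, Meg3, Dlk1, Mest, Peg3, Cdkn1c, Plagl1, Grb10 and Ndn were followed in the abdominal aorta of B cell-deficient mice. The 10 genes were chosen by name and were found as every non-control probe that the array files name after one of them. That gave 25 probes of 55681 and 10 genes of 24038 with a symbol. Of the 25 probes, 22 were kept by the filter on dim signals and 3 were not, so that 9 of the 10 genes entered the tests. Dlk1 did not, and its values are given without a test.

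All 9 samples came from uMT mice of the C57BL/6 strain. These mice cannot make membrane IgM heavy chain, which halts the B cell lineage at an early step, and every group shared this defect. Of 3 groups of 3 arrays, the first had 0.5 M CaCl2 applied around the aorta and mouse polyclonal IgG given into the peritoneum (CaCl2 plus IgG). The second had the same CaCl2 without IgG (CaCl2), and in the sham operation physiological saline was applied instead (sham). Periaortic CaCl2 is a chemical injury used to model abdominal aortic aneurysm, and aortas were taken on day 7 after it. The day on which sham aortas were taken, the age and sex of the mice and the dose of IgG are not given in any source used here. The labels do not state whether the 3 samples of a group are 3 animals, so p-values here reflect only the spread among these samples, and that spread may be technical.

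Each array was a 1-colour Agilent mouse array with 60-base probes. Levels are log2 of the processed signal minus the 75th percentile of the same array, so that 0 is a spot as bright as that percentile. Per array, 54.9% to 59.9% of probes passed the well-above-background flag, and 0 spots were saturated. The array has 0 probes named Ighm, the mutated gene, so the genotype was not checked here. All 8 smooth muscle markers and all 8 endothelial markers listed were measured. Replicate 3 of CaCl2 plus IgG stood apart from the other 8 arrays, at -75.2 on the second principal component against 0.70 to 16.0. Sham replicate 3 was alone on its slide. Genes were tested with limma in 1 fit over the 9 arrays, with p-values adjusted by Benjamini-Hochberg over all 16628 genes and a call at an adjusted p under 0.05.

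Imprinted genes are transcribed from a single parental copy, chosen by DNA methylation marks laid down in the egg or the sperm. In the mouse, Igf2, Dlk1, Mest, Peg3, Plagl1 and Ndn are transcribed mainly from the paternal copy, and H19, Meg3, Cdkn1c and, outside the brain, Grb10 mainly from the maternal one. Many of them act on fetal and placental growth, and several are strongly expressed before birth and fall to low levels in most tissues afterwards. H19 and Igf2 share enhancers and an imprinting control region on chromosome 7, and Dlk1 and Meg3 are neighbours in the same way on chromosome 12. An array signal adds up both parental copies, so nothing here measures imprinting itself.

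The genes lie on 5 chromosomes. By the mm9 coordinates in the array files, the probe of Igf2 and the last probe of H19 were 78.2 kb apart and the Igf2 and Cdkn1c probes 805 kb apart. H19, Meg3, Plagl1, Peg3 and Mest were read by more than 1 kept probe, and Igf2, Cdkn1c, Grb10 and Ndn by 1 each. Where a gene had several, the kept probe that was brightest on average over all arrays stood for it in the gene test, and the other probes were read from a second fit over all 32166 kept probes. That second fit was added after the data were seen.

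The probes of H19 are shown first, because the most 5′ of them was the 1 probe called. The 7 H19 probes lie on the minus strand of chromosome 7 (mm9) and span 925 bases between their starts, with 244 bases between the starts of probes 1 and 2. They are printed 5′ to 3′ in lower case, with no capitals, in the order in which they follow each other along the transcript. Probe 1 lies at chr7:149762417-149762476 and probe 7, which stood for the gene, at chr7:149761492-149761551.
H19 probe 1: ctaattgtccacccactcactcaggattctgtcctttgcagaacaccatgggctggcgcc
H19 probe 2: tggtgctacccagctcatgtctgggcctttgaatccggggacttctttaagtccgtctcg
H19 probe 3: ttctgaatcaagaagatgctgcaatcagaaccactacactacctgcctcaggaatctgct
H19 probe 4: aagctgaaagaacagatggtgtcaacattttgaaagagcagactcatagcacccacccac
H19 probe 5: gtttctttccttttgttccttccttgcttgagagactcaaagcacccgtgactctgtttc
H19 probe 6: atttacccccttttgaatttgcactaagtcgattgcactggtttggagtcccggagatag
H19 probe 7: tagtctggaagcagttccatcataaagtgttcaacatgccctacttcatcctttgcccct
GC content was 55.0% in probes 1 and 2 and 45.0% in probes 3 to 7. The exon in which each probe lies was not looked up, since no mm9 annotation was used.

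The gene starts of Igf2 and Peg3 are shown because these were the 2 members that changed in the gene test. RefSeq (GRCm38.p6) gave 15 windows of 300 bases around the starts of 8 members, with none for H19 and Cdkn1c. The letters CG, searched as CG, which reads the same on both strands, are in capitals, since methylation in mammals falls mainly on that pair. Peg3 has 1 window, at chr7:6730370-6730669 on the minus strand, with 13 CG pairs. Of the 4 Igf2 windows the one with most CG pairs, 24, is at chr7:142658755-142659054 on the minus strand.
Peg3 window: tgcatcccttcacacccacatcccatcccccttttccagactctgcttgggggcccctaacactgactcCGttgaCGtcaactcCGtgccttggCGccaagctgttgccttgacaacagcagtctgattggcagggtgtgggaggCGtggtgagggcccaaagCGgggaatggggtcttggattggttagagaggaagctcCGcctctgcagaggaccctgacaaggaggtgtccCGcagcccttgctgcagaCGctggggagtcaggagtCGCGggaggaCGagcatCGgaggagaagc
Igf2 window 3: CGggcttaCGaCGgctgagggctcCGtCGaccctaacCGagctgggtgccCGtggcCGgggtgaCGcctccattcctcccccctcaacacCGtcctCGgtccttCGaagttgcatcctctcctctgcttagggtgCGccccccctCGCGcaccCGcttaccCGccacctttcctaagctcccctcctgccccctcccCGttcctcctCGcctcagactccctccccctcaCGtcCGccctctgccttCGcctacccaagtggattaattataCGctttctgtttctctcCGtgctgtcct
Of all 32851 windows in the table, 37.9% held at least as many CG pairs as the Peg3 window and 20.0% at least as many as the Igf2 window. The other Igf2 windows held 2, 14 and 7. Over the 15 windows of the members the count ran between 1 and 45 with a median of 13, against a median of 7 over all windows. These counts describe the sequence only, as methylation was not measured.

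The comparison of CaCl2 with sham asks which of these genes differ in the injured aorta when B cells are missing. Igf2 and Peg3 fell, and 0 members rose. Igf2, the gene of the fetal growth factor IGF-II, was 4.87-fold lower and Peg3, a paternally expressed zinc finger protein linked to growth and cell survival, 1.89-fold lower. The 7 other tested members were not called. The count of 2 of 9 stands beside a background of 36.4% of all genes called in this comparison (17.3% higher and 19.1% lower), so the members were not called more often than genes at large. Their median log2 change was -0.17, against -0.08 over all genes.

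CaCl2 plus IgG against sham called the same 2 members, again both lower, beside 28.7% of all genes (14.6% higher and 14.1% lower). Treated and sham arrays did not overlap at Igf2 and Peg3 and overlapped at the 7 other tested members in both comparisons, whereas 44.1% of all genes did not overlap with CaCl2 plus IgG and 56.6% with CaCl2. The median log2 change of the 9 was -0.25, against -0.10 over all genes. Both CaCl2 groups were set against the same 3 sham arrays, so the 2 sets of values are given side by side and are not independent. Between CaCl2 plus IgG and CaCl2, 0 of 9 members were called, beside 0% of all genes, with 249 genes at an unadjusted limma p under 0.05.

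**Figure D1:**
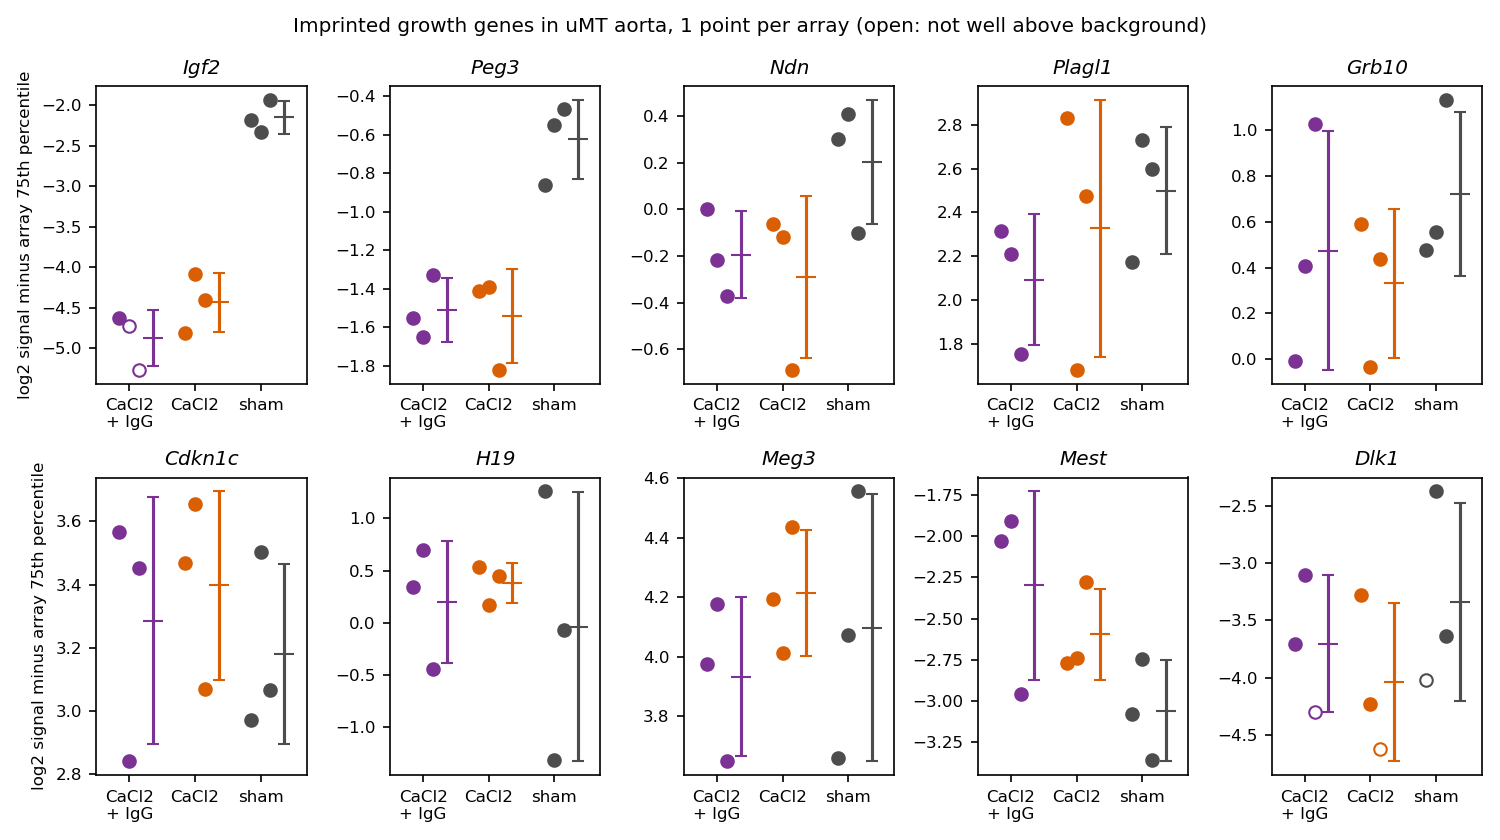
Level of each of the 10 genes on each array, as log2 signal minus the 75th percentile of the array, for CaCl2 plus IgG (purple), CaCl2 (orange) and sham (grey), with the group mean and SD (n = 3) beside the points and open points for arrays on which the probe was not well above background. Igf2 and Peg3 lie lower in all 6 CaCl2-treated samples than in any sham sample, while the groups of the other 8 genes overlap; the vertical scale differs between genes.

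Igf2 levels were -4.63, -4.72 and -5.27 with CaCl2 plus IgG, -4.81, -4.08 and -4.41 with CaCl2, and -2.19, -2.34 and -1.93 in sham. Every CaCl2-treated sample lay below every sham sample, and the treated groups overlapped each other. The probe, at chr7:149839661-149839720 on the minus strand (mm9), was well above background on 1 of 3 arrays with CaCl2 plus IgG and on 3 of 3 in each of the other groups.

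The log2 change of Igf2 was -2.28 ± 0.24 with CaCl2 against sham (SE, n = 3 each, limma adjusted p = 0.000679), with a 95% interval of -2.83 to -1.74. With CaCl2 plus IgG against sham it was -2.72 ± 0.24 (limma adjusted p = 0.000426), with the probe not well above background on 2 of the 3 treated arrays, so that no fold is given. Igf2 was called in both sham comparisons without any 1 of the 9 arrays. A different background correction, normexp, kept both calls with smaller changes, -1.16 with CaCl2 and -1.05 with CaCl2 plus IgG. Over both slides, slide row 1 held 1 array with CaCl2 plus IgG, 3 with CaCl2 and 1 sham array, replicate 3. Row 2 held 2 arrays with CaCl2 plus IgG and 2 sham arrays. Sham replicate 3 was alone on its slide, so the changes within row 1 are also between slides. On the slide of the other arrays, all CaCl2 arrays were in row 1 and both sham arrays in row 2. There, CaCl2 against sham cannot be told apart from the row. Within row 1 the change was -2.70 with CaCl2 plus IgG, 1 array against 1, and -2.51 with CaCl2, 3 arrays against 1. Within row 2 it was -2.73 with CaCl2 plus IgG. A lone array in these fits is assumed to vary like the other groups.

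Between CaCl2 plus IgG and CaCl2, the Igf2 difference was -0.44 ± 0.24 (SE, limma adjusted p = 1.00), with an interval of -0.99 to 0.11. Both means, -4.87 ± 0.35 and -4.43 ± 0.36 (SD, n = 3 each), are near the dim end of the array, where the probe was not always measured above background. The order of levels was therefore sham above both treated groups, with the treated groups not separated.

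Peg3 levels on probe 2 were -1.55, -1.65 and -1.33 with CaCl2 plus IgG, -1.41, -1.39 and -1.82 with CaCl2, and -0.86, -0.55 and -0.47 in sham, well above background on all 9 arrays. Again the 6 treated samples were all lower than the 3 sham samples, and the treated groups interleaved. The log2 change was -0.92 ± 0.18 with CaCl2 against sham (SE, limma adjusted p = 0.00585, 95% interval -1.32 to -0.51). CaCl2 plus IgG against sham gave -0.89 ± 0.18 (limma adjusted p = 0.00764).

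The call on Peg3 held without any 1 array in both comparisons, but scaling the arrays on their median ended it, at -0.45 with CaCl2 (limma adjusted p = 0.209) and -0.65 with CaCl2 plus IgG (limma adjusted p = 0.110). That scaling moved the median change of all genes to 0.39 and 0.14. It shifts all genes of an array alike, so the place of Peg3 relative to the median gene could not differ between the scalings. That place is therefore no support for the lost call. With CaCl2 plus IgG the mean of the kept probes in place of the brightest also ended the call. Of the settings other than leaving out an array, 10 of 11 kept it with CaCl2 and 8 of 12 with CaCl2 plus IgG. Within slide row 1, against its 1 sham array, which was on another slide, the change was -1.09 on the 1 array with CaCl2 plus IgG and -1.08 on the 3 arrays with CaCl2. Within row 2, with 2 arrays in each group, it was -0.79 with CaCl2 plus IgG (limma adjusted p = 0.136).

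A second Peg3 probe, 2633 bases upstream on the minus strand, was dimmer. Its levels were -4.15, -4.85 and -3.95 with CaCl2 plus IgG, -4.49, -4.02 and -6.85 with CaCl2, and -3.04, -3.34 and -2.85 in sham, and it was not well above background on CaCl2 plus IgG replicate 2 and CaCl2 replicate 3. It passed the filter through its sham arrays alone, where it was brightest, so its test is no separate support for the change of Peg3. The treated samples again all lay below sham. Its change with CaCl2 was -2.04 ± 0.65 (SE, limma adjusted p = 0.0433 over all kept probes), beside 32.6% of all kept probes called, and without CaCl2 replicate 3 it was -1.18 (adjusted p = 0.0400). That call was lost without CaCl2 plus IgG replicate 1 or 2, without CaCl2 replicate 1 or without any 1 sham array (adjusted p between 0.0521 and 0.116). For CaCl2 plus IgG against sham the change of -1.24 was not called (adjusted p = 0.195).

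Markers of many cell types moved in the same comparisons as Igf2 and Peg3. In bulk tissue, fewer cells of a type and less RNA per cell cannot be told apart. Counts of markers called, here and in the marker paragraphs that follow, stand beside the shares of all genes called. These were 28.7% with CaCl2 plus IgG and 36.4% with CaCl2, each against sham. All 8 smooth muscle markers fell in both treated groups, and their summed level was 882 to 1205 with CaCl2 plus IgG, 803 to 1290 with CaCl2 and 2588 to 2977 in sham, in units of the 75th percentile. Mature skeletal muscle markers, of which 4 of 9 were measured, summed to 9.22 to 9.78, 7.00 to 15.8 and 40.8 to 52.6 in the same order, with Ckm and Myh4 not well above background on any array. That sum was mostly Acta1, which fell by 2.49 with CaCl2 plus IgG and by 2.48 with CaCl2, whereas Tnni2 rose by 1.92 in both comparisons and the 2 others were not called. Adipocyte markers, 5 of 6 measured, summed to 29.1 to 43.8 with CaCl2 plus IgG, 32.4 to 58.8 with CaCl2 and 62.8 to 109 in sham. All 5 fell with CaCl2 plus IgG, and 1, Fabp4, fell with CaCl2, while the 4 others were not called.

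Fibroblast markers, all 10 measured, summed higher, at 1639 to 1888 with CaCl2 plus IgG and 1445 to 1695 with CaCl2, against 1080 to 1197 in sham. Of the 10, 7 rose with CaCl2 plus IgG and 6 with CaCl2. All 10 macrophage markers were measured, of which 8 rose and 1 fell with CaCl2 plus IgG, and 7 rose and 2 fell with CaCl2. Those that fell were Mertk in both comparisons and Itgam with CaCl2. Summed levels, to which Itgam gave the most in sham, were 240 to 379 with CaCl2 plus IgG, 277 to 294 with CaCl2 and 219 to 225 in sham. Regenerating and fetal muscle, another site of Igf2 and H19 expression, had 6 of 10 markers, Pax7, Myf5, Myod1, Myog, Myh3 and Chrng, not well above background on any array. Its summed level over 3 measured markers was 7.42 to 9.68 with CaCl2 plus IgG, 8.40 to 10.3 with CaCl2 and 22.6 to 26.1 in sham. Nearly all of it was Ncam1, also a gene of nerve, which fell by 1.53 with CaCl2 plus IgG and by 1.43 with CaCl2. Chrna1 also fell but was dim in both treated groups. Chrna1 passed the filter only through its sham arrays, where it was brighter, so its calls are no separate support for a fall. Mymk was not called.

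Chondrocyte markers, 7 of 10 measured, had a summed level of 44.0 to 76.3 with CaCl2 plus IgG, 45.6 to 101 with CaCl2 and 4.71 to 7.52 in sham. The treated and sham ranges did not overlap. Of the 7, 6 rose in each comparison, with Col9a1, Matn1 and Cnmd not well above background on any array. Col2a1, Col11a1 and Matn3 were not well above background on any sham array, and Sox9 on only 1. These genes passed the filter through the treated groups alone, where they were brighter, so their calls are no separate support for a rise. Of 7 measured proliferation markers 5 rose in each comparison, and their sum was 2.93 to 5.49 with CaCl2 plus IgG, 3.56 to 7.34 with CaCl2 and 1.14 to 1.84 in sham. Cdk1 and Bub1 among the 7 were not well above background on any sham array and passed the filter in the same way. Of 7 measured nerve and Schwann cell markers, 3 rose and 2 fell with CaCl2 plus IgG, and 3 rose and 1 fell with CaCl2. Their sum was 15.1 to 18.9 with CaCl2 plus IgG, 12.6 to 17.5 with CaCl2 and 10.8 to 11.0 in sham. Of the 8 endothelial markers 2 rose and 2 fell in each comparison. Of 4 measured adrenal markers, 1 rose and 1 fell with CaCl2 plus IgG and 1 rose and 2 fell with CaCl2, and the 1 measured mesothelial marker, Wt1, rose in both. Wt1 too was not well above background on any sham array and passed the filter through the treated groups alone. The adrenal marker that rose, Star, was well above background on 2 of 3 sham arrays and passed in the same way. The calls of Wt1 and Star are therefore no separate support for a rise. The part of these cell types in the changes of Igf2 and Peg3 was not tested.

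H19, the maternally expressed non-coding RNA that neighbours Igf2, was not called. On probe 7 its levels were 0.34, 0.70 and -0.45 with CaCl2 plus IgG, 0.53, 0.17 and 0.45 with CaCl2, and 1.26, -1.31 and -0.07 in sham. The sham samples spread above and below all treated samples, and their SD was 1.29, against 0.59 with CaCl2 plus IgG and 0.19 with CaCl2. The log2 change was 0.42 ± 0.58 with CaCl2 against sham (SE, limma adjusted p = 0.590), with an interval of -0.90 to 1.75. A rise as large as the fall of Peg3 lay within that interval, and a fall of that size just outside its lower end. CaCl2 plus IgG against sham gave 0.24 ± 0.58 (limma adjusted p = 0.777).

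The spread within sham recurred along the transcript. Sham replicate 1 was the highest sham sample on all 6 of H19 probes 2 to 7. On probe 6 the sham levels were 0.25, -2.89 and -1.45, against -0.94, -0.53 and -1.77 with CaCl2 plus IgG and -0.71, -0.97 and -0.84 with CaCl2. These probes read the same RNA samples, so they describe 1 difference between the sham samples and not 6.

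H19 probe 1, the most 5′, was called. Its levels were -6.18, -6.23 and -4.20 with CaCl2 plus IgG, -6.04, -7.40 and -4.96 with CaCl2, and -3.95, -3.59 and -2.79 in sham. All treated samples were below all sham samples, and the probe was well above background on 1 of 3 arrays with CaCl2 plus IgG, 0 of 3 with CaCl2 and 3 of 3 in sham. It therefore passed the filter only through the group in which it was brightest, so its test is no separate support for a fall of H19. It was at least 3.11-fold lower with CaCl2 than in sham (limma adjusted p = 0.0250 over all kept probes), beside 32.6% of all kept probes called. With CaCl2 plus IgG against sham its change of -2.10 was not called (limma adjusted p = 0.0707), beside 21.7% of all kept probes called. The CaCl2 call was lost without sham replicate 2 or 3 or CaCl2 replicate 1 or 2, at adjusted p between 0.0586 and 0.0842, and with the slide row as a block (adjusted p = 0.0964). Of 9 settings other than leaving out an array, 7 kept it.

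**Figure D2:**
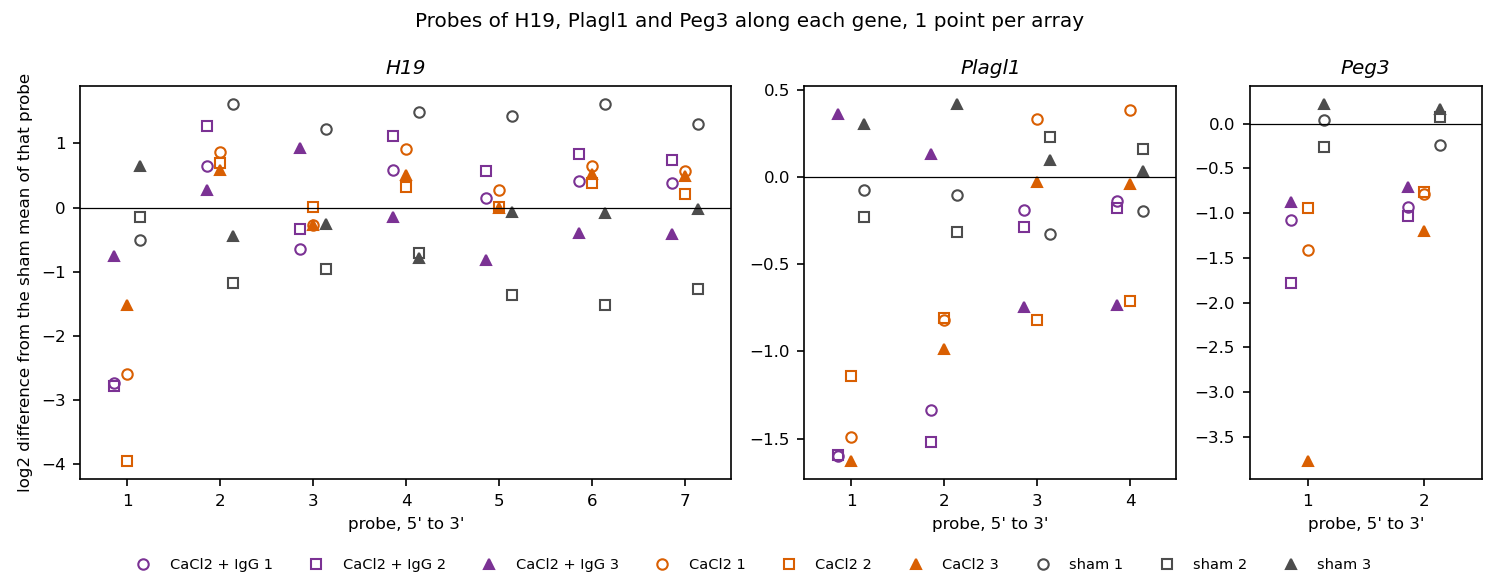
Level of each kept probe of H19, Plagl1 and Peg3 on each array, as a log2 difference from the sham mean of the same probe, with probes in 5′ to 3′ order; colour gives the group (purple CaCl2 plus IgG, orange CaCl2, grey sham) and symbol the replicate. On probe 1 of H19 and of Peg3 all 6 treated samples lie below sham, on probes 2 to 7 of H19 sham replicate 1 is the highest sham sample, and on probes 1 and 2 of Plagl1 replicate 3 of CaCl2 plus IgG lies apart from the 5 other treated samples.

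Meg3, the maternally expressed non-coding RNA of the chromosome 12 cluster, was bright on its probe 3, which stood for the gene and lies at chr12:110809678-110809737 on the plus strand (mm9). Its levels were 3.98, 4.18 and 3.65 with CaCl2 plus IgG, 4.19, 4.01 and 4.44 with CaCl2, and 3.66, 4.07 and 4.56 in sham, and the groups overlapped. The change on this probe was 0.12 ± 0.25 with CaCl2 against sham (SE, limma adjusted p = 0.732, interval -0.45 to 0.68) and -0.16 ± 0.25 with CaCl2 plus IgG against sham (limma adjusted p = 0.639). These values hold for probe 3 alone and do not speak for the other kept probes of Meg3.

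Dlk1, the paternally expressed partner of Meg3, encodes a membrane protein related to Notch ligands that holds back fat cell differentiation. Its brighter probe read -3.71, -3.10 and -4.30 with CaCl2 plus IgG, -3.28, -4.23 and -4.62 with CaCl2, and -4.02, -2.37 and -3.63 in sham. It passed the background flag on 2 of 3 arrays of each group, so the filter left it out, and the groups overlapped. The difference of means was -0.36 with CaCl2 plus IgG against sham and -0.70 with CaCl2 against sham, and neither was tested. The other Dlk1 probe was not well above background on any array.

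Mest, a paternally expressed hydrolase-family protein that rises in growing fat, read -2.03, -1.91 and -2.95 with CaCl2 plus IgG, -2.77, -2.74 and -2.28 with CaCl2, and -3.08, -2.74 and -3.36 in sham on probe 3. Replicates 1 and 2 with IgG were the highest of the 9 samples, and replicate 3 lay within the sham range. The change was 0.46 ± 0.30 with CaCl2 against sham (SE, limma adjusted p = 0.249) and 0.76 ± 0.30 with CaCl2 plus IgG against sham (limma adjusted p = 0.0903). Without replicate 3 with IgG, CaCl2 plus IgG against sham gave 1.09 (limma adjusted p = 0.00770).

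Mest probe 2 gave a different picture 894 bases upstream. It read -3.57, -2.84 and -3.34 with CaCl2 plus IgG, -3.46, -3.69 and -3.67 with CaCl2, and -3.11, -2.92 and -3.37 in sham. The CaCl2 samples lay below sham here, with a change of -0.48 ± 0.21 (SE, limma adjusted p = 0.114 over all kept probes), and the 2 kept Mest probes therefore differed in sign without either being called. Mest probe 1 was not well above background on any array.

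Plagl1, a paternally expressed zinc finger transcription factor that in the mouse acts on other imprinted genes, Igf2 and H19 among them, also differed between its probes. On probe 3, which stood for the gene, levels were 2.31, 2.21 and 1.75 with CaCl2 plus IgG, 2.83, 1.68 and 2.47 with CaCl2, and 2.17, 2.73 and 2.60 in sham. The groups overlapped, with changes of -0.17 ± 0.31 with CaCl2 (SE, limma adjusted p = 0.681) and -0.41 ± 0.31 with CaCl2 plus IgG (limma adjusted p = 0.338), each against sham. Probe 4, the most 3′, gave nearly the same values.

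Plagl1 probe 1 read -1.16, -1.16 and 0.80 with CaCl2 plus IgG, -1.05, -0.70 and -1.19 with CaCl2, and 0.36, 0.21 and 0.74 in sham. Of the 6 treated samples 5 were below sham, and replicate 3 with IgG was the highest of all 9. The change with CaCl2 was -1.42 ± 0.49 (SE, limma adjusted p = 0.0547 over all kept probes), short of a call, and on probe 2 it was -0.87 ± 0.41 (adjusted p = 0.129). Averaging the 4 kept probes in place of the brightest gave a change of -0.65 with CaCl2, which was called (limma adjusted p = 0.0442), and -0.65 with CaCl2 plus IgG, which was not (limma adjusted p = 0.0509). The starts of probes 1 and 4 were 2859 bases apart.

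**Figure D3:**
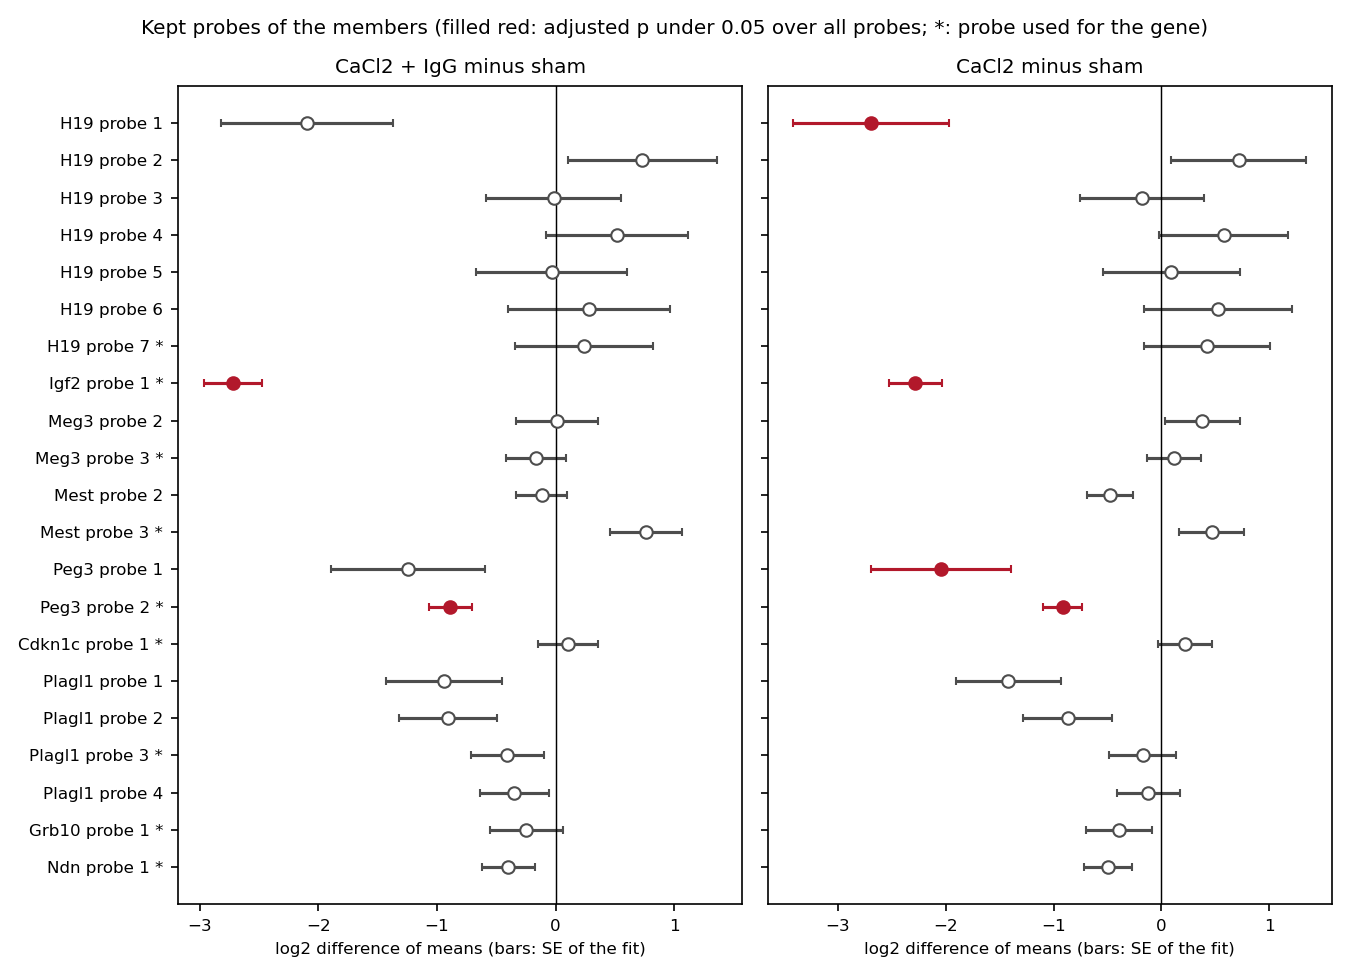
Log2 difference of group means for 21 of the 22 kept probes, for CaCl2 plus IgG minus sham on the left and CaCl2 minus sham on the right, with bars of 1 SE from the fit over all kept probes; red points had an adjusted p under 0.05 and stars mark the probe that stood for its gene. Among the probes drawn, Igf2 and Peg3 probe 2 are red on both sides, and Peg3 probe 1 and H19 probe 1 on the right only, the difference between the sides not having been called for any probe. The kept probe that is not drawn was called higher with CaCl2 than in sham, so not all called probes fell.

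Cdkn1c, which encodes the cyclin-dependent kinase inhibitor p57, is expressed from the maternal copy and restrains fetal growth. Its levels were 3.57, 2.84 and 3.45 with CaCl2 plus IgG, 3.47, 3.65 and 3.07 with CaCl2, and 2.97, 3.50 and 3.07 in sham. The 3 groups overlapped almost entirely. The change was 0.22 ± 0.25 with CaCl2 against sham (SE, limma adjusted p = 0.517, interval -0.35 to 0.79) and 0.11 ± 0.25 with CaCl2 plus IgG against sham (limma adjusted p = 0.770).

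Grb10, an adaptor protein that dampens signalling from the insulin and IGF-I receptors, read -0.01, 0.41 and 1.03 with CaCl2 plus IgG, 0.59, -0.03 and 0.44 with CaCl2, and 0.48, 0.56 and 1.13 in sham. Sham replicate 3 was the highest, but the groups overlapped. The change was -0.39 ± 0.30 with CaCl2 (SE, limma adjusted p = 0.335) and -0.25 ± 0.30 with CaCl2 plus IgG (limma adjusted p = 0.557), each against sham.

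Ndn, a MAGE family protein best known from postmitotic neurons, read 0.00, -0.22 and -0.37 with CaCl2 plus IgG, -0.06, -0.12 and -0.69 with CaCl2, and 0.30, 0.41 and -0.10 in sham. Only sham replicate 3 lay within the range of the treated samples. The change was -0.49 ± 0.22 with CaCl2 (SE, limma adjusted p = 0.104, interval -0.99 to 0.00081) and -0.40 ± 0.22 with CaCl2 plus IgG (limma adjusted p = 0.195), each against sham.

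Adding IgG to CaCl2 asks whether immunoglobulin alters these levels in mice without B cells. The 9 tested members had log2 differences between -0.44 (Igf2) and 0.30 (Mest) for CaCl2 plus IgG minus CaCl2, each with a limma adjusted p of 1.00. The intervals were narrowest for Peg3, -0.37 to 0.43 about a difference of 0.03, and widest for H19, -1.51 to 1.14 about -0.18. For Ndn the interval was -0.40 to 0.59, for Cdkn1c -0.68 to 0.46 and for Meg3 -0.85 to 0.29. A difference of the size of the Igf2 change with CaCl2 lay outside all of these, while one of the size and sign of the Peg3 change with CaCl2 lay within those of H19, of Igf2 and of Plagl1 (-0.93 to 0.46). Groups overlapped for all 9, beside 5.03% of all genes that did not, and none of the 22 kept probes was called in this comparison.

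The partners of Igf2 in the insulin-like growth factor system were read as a list of 18 genes, of which 15 were measured and Igfbp1, Igf2bp1 and Igf2bp3 were not well above background on any array. With CaCl2 plus IgG against sham 4 rose, 3 fell and 8 were not called. With CaCl2 against sham 4 rose, 5 fell and 6 were not called. That is 46.7% and 60.0% of the list, beside 28.7% and 36.4% of all genes. The median changes were -0.10 and 0.05, against -0.10 and -0.08 over all genes.

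Igf1, the gene of the postnatal growth factor, read 4.12, 3.62 and 3.12 with CaCl2 plus IgG, 3.63, 3.22 and 3.51 with CaCl2, and 1.71, 1.58 and 1.14 in sham. It rose by 2.14 with CaCl2 plus IgG (limma adjusted p = 0.00114) and by 1.98 with CaCl2 (limma adjusted p = 0.00142) on the log2 scale, against sham, without overlap. Igf1 and Igf2 moved in opposite directions.

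Pappa2, a protease that cuts IGF-binding proteins and so frees their ligands, rose by 3.57 with CaCl2 plus IgG (limma adjusted p = 0.000345) and by 3.47 with CaCl2 (limma adjusted p = 0.000327). Pappa, also on the list, went the other way. Its change of -1.43 with CaCl2 plus IgG was not called (limma adjusted p = 0.0717), and with CaCl2 it fell by 2.28 (limma adjusted p = 0.0116). Igfbp3, an IGF-binding protein, rose by 2.74 (limma adjusted p = 0.0101) and 3.16 (limma adjusted p = 0.00486) in the same 2 comparisons. Igf1r, the main receptor of both growth factors, fell by 0.84 with CaCl2 plus IgG and by 0.83 with CaCl2. Igf1r and Pappa are named here after their values were seen. Igf2r, the imprinted receptor that clears IGF-II, had changes of -0.10 and 0.08 and was not called.

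**Figure D4:**
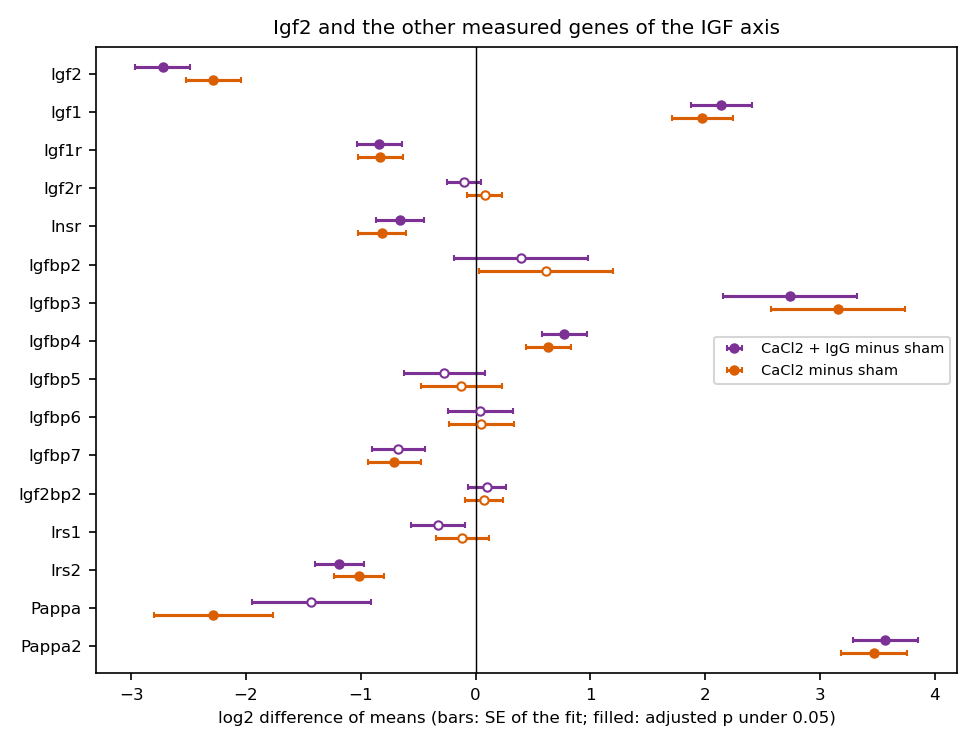
Log2 difference of group means for Igf2 and the 15 measured genes of the insulin-like growth factor list, CaCl2 plus IgG minus sham (purple) above CaCl2 minus sham (orange), with bars of 1 SE from the fit and filled points where the adjusted p was under 0.05. Igf2 lies at -2.72 and -2.28, while Igf1, Igfbp3 and Pappa2 lie to the right of 0 and Igf1r and Pappa to the left in both comparisons.

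Cdkn1c was set beside the 6 other cyclin-dependent kinase inhibitor genes. Of the 7, 3 rose with CaCl2 plus IgG and 4 with CaCl2, each against sham, and 0 fell, which is 42.9% and 57.1% of the list beside 28.7% and 36.4% of all genes called. Cdkn2a, which encodes p16 and a second, overlapping protein, was not well above background on any sham array. It passed the filter through the treated groups alone, where it was brighter, so its calls are no separate support for a rise. It was at least 7.49-fold higher with CaCl2 plus IgG (limma adjusted p = 0.000842) and at least 8.02-fold higher with CaCl2 (limma adjusted p = 0.000752). Cdkn2b rose by 1.28 and 1.36 on the log2 scale in the same 2 comparisons (limma adjusted p = 0.00811 and 0.00558). Cdkn1c itself, at 0.11 and 0.22, was not among those called.

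Imprinted genes outside the 10 were read as a list of 42, of which 40 were on the array and 30 were measured. Phlda2, Usp29, Zim1, Peg10, Rtl1, Gnasas1, Zdbf2 and Klf14 were not well above background on any array. With CaCl2 plus IgG against sham 2 rose, 6 fell and 22 were not called, and with CaCl2 against sham 3 rose, 6 fell and 21 were not called. That is 26.7% and 30.0% of the list, beside 28.7% and 36.4% of all genes. The median changes, -0.10 and -0.12, lay close to those of all genes, -0.10 and -0.08.

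On chromosome 7, Snrpn, a splicing protein gene of the cluster that also holds Ndn, fell by 1.29 with CaCl2 plus IgG and by 1.26 with CaCl2 (limma adjusted p = 0.00287 and 0.00281), each against sham. Ppp1r9a, a neuronal actin-binding protein gene of the Peg10 cluster on chromosome 6, fell by 1.32 with CaCl2 plus IgG and by 1.58 with CaCl2 (limma adjusted p = 0.00642 and 0.00273). Gnas, the gene of a stimulatory G protein subunit, fell by 0.65 and 0.54 (limma adjusted p = 0.0128 and 0.0233). Ube3a, a ubiquitin ligase gene of the Snrpn cluster, fell by 0.48 and 0.60 (limma adjusted p = 0.0394 and 0.0148). Magel2, the neighbour and relative of Ndn, fell by 1.16 with CaCl2 (limma adjusted p = 0.0289) and with CaCl2 plus IgG was not called. It passed the filter through its sham arrays alone, where it was brighter, so its call is no separate support for a fall. Ndn itself was lower on average without a call, as given above.

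Near H19, Igf2 and Cdkn1c, Slc22a18 rose by 0.52 in both comparisons (limma adjusted p = 0.0498 with CaCl2 plus IgG and 0.0424 with CaCl2). Tssc4, also on chromosome 7, rose by 0.64 with CaCl2 (limma adjusted p = 0.0306) and was not called with CaCl2 plus IgG. Near Dlk1 and Meg3, Dio3, which encodes an enzyme that inactivates thyroid hormone, rose by 1.51 with CaCl2 plus IgG (limma adjusted p = 0.0293) and had a change of 1.22 with CaCl2 (limma adjusted p = 0.0512). Its probe was well above background on 3, 3 and 1 of 3 arrays with CaCl2 plus IgG, with CaCl2 and in sham. Dio3 passed the filter through the treated groups alone, where it was brighter, so its call is no separate support for a rise. Begain, next to Dlk1, rose by 1.21 with CaCl2 (limma adjusted p = 0.0310). On chromosome 2, Nnat fell by 2.91 with CaCl2 plus IgG and by 2.10 with CaCl2 (limma adjusted p = 0.0150 and 0.0419). Its probe was well above background on 2 of 3 arrays with CaCl2 plus IgG and on all arrays of the other groups. Blcap, also on chromosome 2, fell by 0.98 with CaCl2 plus IgG (limma adjusted p = 0.0233) and was not called with CaCl2. Magel2, Slc22a18, Tssc4, Dio3, Begain, Nnat and Blcap are named after their values were seen.

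**Figure D5:**
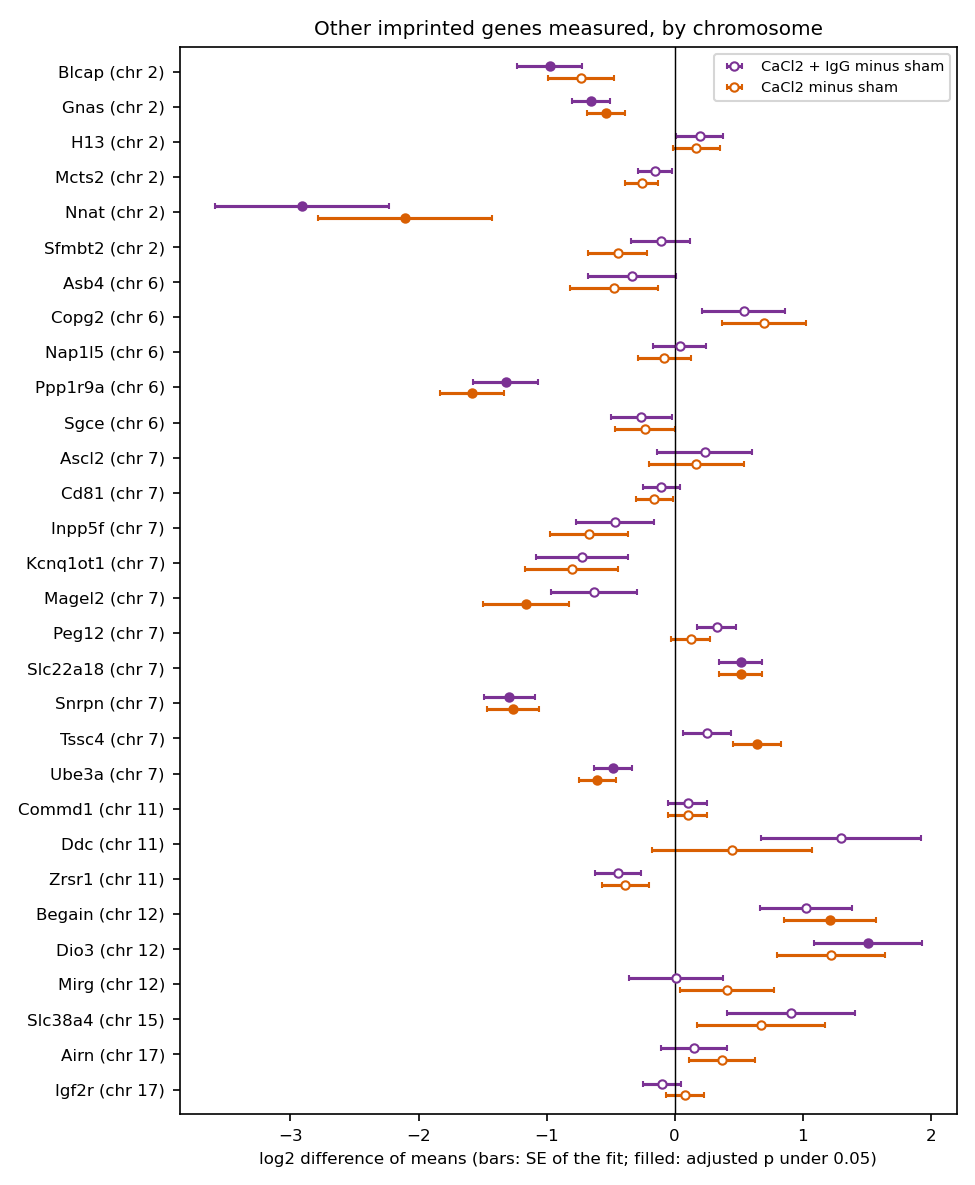
Log2 difference of group means for the 30 measured imprinted genes outside the 10, ordered by chromosome, CaCl2 plus IgG minus sham (purple) above CaCl2 minus sham (orange), with bars of 1 SE from the fit and filled points where the adjusted p was under 0.05. Filled points lie on both sides of 0, 3 to the right and 6 to the left with CaCl2, and most points are open.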

How the data were processed

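RNA from 9 aorta samples was measured, 1 array per sample. RNA was extracted with TRIzol and, after amplification, carried Cy3, per the labels' protocols, which name SV Total RNA Isolation where the design text names RNeasy. The deposited scanner files hold spot intensity on a linear scale, with background and spatial trends removed by Feature Extraction 10.7.1.1, per the file headers. The submitters' processing notes name version 9.5.1.1. The authors' deposited series table holds intensity too. The sources used here do not state its steps, and it served as an alternative.

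Control and outlier spots were left out, spots of a probe were averaged, and log2 processed signal minus the 75th percentile of the array was used. A probe was kept if well above background on all 3 arrays of a group. Of the probes, 27235 were named by accession and 4146 by symbol in RefSeq GRCm38.p6, 1799 by the file alone, and 22501 had no symbol. Groups, read from the titles, were compared with limma 3.58.1 (lmFit, eBayes) in R 4.3.3, with data.table (version 1.17.8) to read the files, over 9 arrays with 6 residual degrees of freedom and no covariate. The code was tested on simulated data. The single-probe values of 1 kept probe, which was called higher with CaCl2 than in sham, are not reported here. Columns not mapped to a sample numbered 0. The 75th percentile of the processed signal, the brightness on which each array was scaled, was 270 to 455 in CaCl2 plus IgG, 381 to 496 in CaCl2 and 267 to 302 in sham. The number of arrays limits the precision.

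Where a gene had no probe well above background in a group, a bound is given, set by the brighter mean and, on each dim array, the higher of the probe and the lowest signal well above background. The members, lists and settings were chosen with earlier results of these data known. All members were named, and of each list up to 3 called genes by smallest adjusted p where a sentence turned on them. Further genes were named with the counts of cell type markers, to give a list member that was not called, or after their values were seen where that is stated. Alternatives covered scaling, background correction, the filter, several probes of a gene, the arrays in the fit, the slide row, the replicate number and each array left out.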

Additional observations from a re-analysis of the deposited data

How the results depend on the processing

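Igf2 was lower and called in both sham comparisons under every setting that gave it a value. The filter on probes well above background on all 9 arrays removed its probe, leaving 1 member called in each. Scaling on the median of the array also left 1 member called in each, Igf2, as Peg3 was lost, and 3013 genes called for CaCl2 plus IgG against sham. In that comparison 1 member was called with the mean of the kept probes, on slide row 1 (1 array against 1) and on slide row 2 (2 against 2), where 2524 and 1281 genes were called. The slide row as a block gave 3364 genes for CaCl2 against sham. Leaving out 1 array gave 3001 to 6734 genes for CaCl2 plus IgG against sham (fewest without replicate 2 with IgG) and 2 to 3 members. It gave 3891 to 7472 genes for CaCl2 against sham (3891 without sham replicate 3, 3980 without CaCl2 replicate 1) and 2 members. For CaCl2 plus IgG against CaCl2 it gave 0 to 2 genes and 0 members. Under normexp the change of H19 probe 1 with CaCl2 was -0.96 and that of Peg3 probe 1 -0.81. Peg3 probe 1 was not called with median scaling, quantile normalization or the series table (adjusted p = 0.0703, 0.0941 and 0.103), nor on slide row 1. Of 9 settings other than leaving out an array, 3 called it.

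The titles do not state whether the replicate numbers pair the samples, and 3 arrays per group cannot settle it. Deviations of same-numbered arrays correlated between -0.20 and 0.23, and 3 of 9 arrays correlated best with their own number. With the replicate block 4658 genes were called for CaCl2 plus IgG against sham, 0 for CaCl2 plus IgG against CaCl2 and 5800 for CaCl2 against sham. In the last, 3 members were called, with Ndn added (-0.49, limma adjusted p = 0.0366).

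Changes that were not called reversed sign under some settings, and the cause was not tested. For CaCl2 plus IgG against sham, Meg3 was 0.074 with median scaling, 0.15 with the mean of probes and 0.045 on row 2. H19 was -0.053 with the mean of probes, Ndn 0.10 on row 1, and Cdkn1c and Grb10 -0.091 and 0.20 on row 2. Leaving out 1 array gave -0.40 to 0.89 for H19, -0.38 to 0.067 for Meg3 and -0.035 to 0.33 for Cdkn1c. For CaCl2 plus IgG against CaCl2, Peg3 was -0.20 with median scaling, -0.046 with quantile normalization, -0.056 with the series table and -0.011 on row 1. Grb10 was -0.090 and Ndn -0.14 with median scaling, Igf2 was 0.11 with normexp, H19 0.025 with the mean of probes, and Cdkn1c and Grb10 0.17 and -0.34 on row 1. Leaving out 1 array gave -0.43 to 0.14 for H19, -0.11 to 0.11 for Peg3, -0.27 to 0.11 for Cdkn1c, -0.56 to 0.016 for Plagl1, -0.13 to 0.39 for Grb10 and -0.10 to 0.21 for Ndn. For CaCl2 against sham, Plagl1 and Grb10 were 0.30 and 0.081 with median scaling. Mest was -0.070 with normexp and -0.0058 with the mean of probes, where H19 was -0.078. Meg3 was -0.13 with the row block and -0.34 on row 1. Leaving out 1 array gave -0.21 to 1.07 for H19, -0.10 to 0.35 for Meg3 and -0.42 to 0.15 for Plagl1. Signal over background limits Igf2, Dlk1, H19 probe 1 and Peg3 probe 1, which were near the dim end of the arrays.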

Other observations

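Genes that set or keep imprints were measured in full, 14 of 14. With CaCl2 plus IgG against sham 1 rose, 3 fell and 10 were not called, and with CaCl2 against sham 1 rose, 4 fell and 9 were not called, close to the 28.7% and 36.4% of all genes called. Zfp57, a zinc finger protein that guards imprints in the mouse embryo, read -1.80, -1.74 and -0.89 with CaCl2 plus IgG, -2.03, -2.28 and -1.70 with CaCl2, and -0.38, -0.35 and 0.26 in sham. The treated samples all lay below sham, and Zfp57 fell by 1.32 with CaCl2 plus IgG and by 1.84 with CaCl2 (limma adjusted p = 0.0121 and 0.00272). Tet3, an enzyme that oxidizes methylcytosine, fell by 0.90 and 1.25 (limma adjusted p = 0.00967 and 0.00227). Ezh2, a histone methyltransferase, was the 1 gene of the list that rose, by 1.16 and 1.14 (limma adjusted p = 0.00121 and 0.00119). Ctcf, the factor that binds the imprinting control region between H19 and Igf2, and Dnmt1, the maintenance DNA methyltransferase, were not called, with changes of -0.10 and -0.0063 with CaCl2 against sham.

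Of 12 Notch pathway genes, listed because Dlk1 is related to Notch ligands, 1 rose in each sham comparison and 0 fell, 8.33% of the list beside 28.7% of all genes called with CaCl2 plus IgG and 36.4% with CaCl2. That gene was Dll4, an endothelial Notch ligand, with rises of 0.88 with CaCl2 plus IgG and 0.87 with CaCl2 (limma adjusted p = 0.0333 and 0.0293). Of 8 measured adipogenesis genes, 1 rose and 3 fell with CaCl2 plus IgG, and 3 rose and 1 fell with CaCl2, 50% of the list in each, beside the same shares of all genes. Cebpa, a transcription factor also used by myeloid cells, rose by 1.38 and 1.68 (limma adjusted p = 0.0220 and 0.00896). Fabp4, a fatty acid-binding protein of fat and endothelium, fell by 0.80 and 0.79 (limma adjusted p = 0.0232 and 0.0208). The difference between the treated groups was not called for any gene of these lists.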
